A study of Mus musculus with 12 samples.

Results

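The genes described are Igf1, which encodes insulin-like growth factor 1, and the genes for the proteins that carry it in blood or bind it at the cell surface: Igfals, Igfbp1, Igfbp2, Igfbp3, Igfbp4, Igfbp6, Igfbp7, Igf2r and Igf1r. They were taken by symbol and are 10 of the 24537 genes in the deposited liver table, each with 1 row. Hepatocytes make most of the IGF1 that circulates, under the control of growth hormone. In blood most of it is held in a complex with IGFBP3 or IGFBP5 and the acid-labile subunit that Igfals encodes, and smaller binding proteins such as IGFBP1 and IGFBP2 form complexes without that subunit. Insulin acutely lowers hepatic Igfbp1 transcription and fasting raises it, through an insulin response element in its promoter that FOXO factors bind.

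Liver RNA-Seq was available for 12 male C57Bl/6J mice, housed singly and 6 weeks old at the start, 25 or 30 days before the livers were taken. Con mice ate without limit. CR mice were under 30% calorie restriction, with food given once a day at noon, so the groups also differed in when they ate. The paper gives a fortified form of the Con diet for CR mice, so the diets differed as well. The hour at which the livers were taken, and so the time since the last meal, is not stated in the sources used here. Each group had 3 mice at day 25 and 3 at day 30, which are Con7 to Con9 and CR7 to CR9 at day 25 and Con10 to Con12 and CR10 to CR12 at day 30. All mice received heavy water over the last days before collection. The study chose the days to look at liver transcripts on either side of a slowdown of protein synthesis under CR. Expression is given as FPKM, a count of exon reads scaled to transcript length and library size. The depth recovered from the steps of low values was 15748725 to 23345545 reads, with a median of 18377843 in the Con and 20110053 in the CR group of day 25, and of 21329211 and 23326348 in those of day 30.

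On the FPKM scale, which compares levels between genes per length of the 1 transcript kept for each, the 10 genes spanned a wide range. Igfbp4 was the highest, with a mean of 734 FPKM ± 95.6 (SD, n = 12), and ranked 74 among all genes. Igfbp2 came next with 362 ± 97.0 FPKM, then Igf1 with 82.0 ± 13.2 FPKM. In all 12 libraries Igfbp4 was above Igfbp2 and Igfbp2 above Igf1. Igfbp1 (53.0 ± 48.0 FPKM), Igfals (37.7 ± 7.58 FPKM) and Igfbp7 (32.3 ± 4.69 FPKM) followed, and these neighbours in the order did not differ beyond their spread: Igfbp1 was above Igfals in 7 of 12 libraries, which were all 6 CR libraries and Con9. Igfals was above Igfbp7 in 9 of 12, the exceptions being CR10, CR11 and CR12. Low levels were found for Igf2r (7.15 ± 0.987 FPKM), Igfbp3 (3.78 ± 1.29 FPKM), Igfbp6 (1.02 ± 0.453 FPKM) and Igf1r (0.341 ± 0.0552 FPKM). Igf1r, the receptor through which IGF1 signals, had 63 to 114 reads a library, and Igfbp6 had 9 to 41. Igf1r did not pass the filter for testing, which asked for 3 or more libraries with an FPKM of 1 or more, and Igfbp6 passed it with 7 libraries at or above 1.

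Igfbp1 rose in CR mice at both days, and no other gene of the 9 tested was called at day 25. By limma on log2(FPKM + 1), with Benjamini-Hochberg adjustment over the 10593 genes that passed the filter and a threshold of 0.1, 1 of 9 was called at day 25 (1 higher, 0 lower) against 14.9% of all genes tested (5.6% higher and 9.34% lower). After median-ratio scaling or quantile normalization Igfbp4 was called at day 25 as well (adjusted p = 0.0746 and 0.0697; 0.0697 to 0.476 over its alternatives). At day 30, 3 of 9 were called, Igfbp1 higher and Igfals and Igf2r lower, against 24.7% of all genes (8.33% higher, 16.4% lower). After median-ratio scaling 4 were called at day 30, Igfbp1, Igfbp4 and Igfbp7 higher and Igfals lower, and after quantile normalization 3, Igfbp1 and Igfbp7 higher and Igfals lower. Over both days, with day in the model, 3 of 9 were called, and Igfbp1, Igfbp4 and Igfbp7 were all higher, against 40.6% of all genes (14.5% higher, 26.1% lower). The number called was near or below the background share at each day and over both days. Of the genes called, those at least 2-fold apart were 1 of 9 in each comparison, Igfbp1, against 1.48% of all genes at day 25, 2.21% at day 30 and 1.66% over both days. The CR and Con groups did not overlap for 3 of 9 members at day 25 (Igfbp1, Igfbp3, Igfbp4), against 28.2% of all genes, and for 4 of 9 members at day 30 (Igfbp1, Igfbp4, Igfbp7, Igf2r) against 36.4%.

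The balance of directions among all genes depended on the scaling between libraries. Of all genes called, 37.5% were higher in CR at day 25, 33.7% at day 30 and 35.7% over both days; after median-ratio scaling these shares were 53.8%, 51.6% and 52.8%, and after quantile normalization 47.8%, 50.7% and 50.6%. The called members kept the sign of their differences under both of these scalings.

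**Figure D1:**
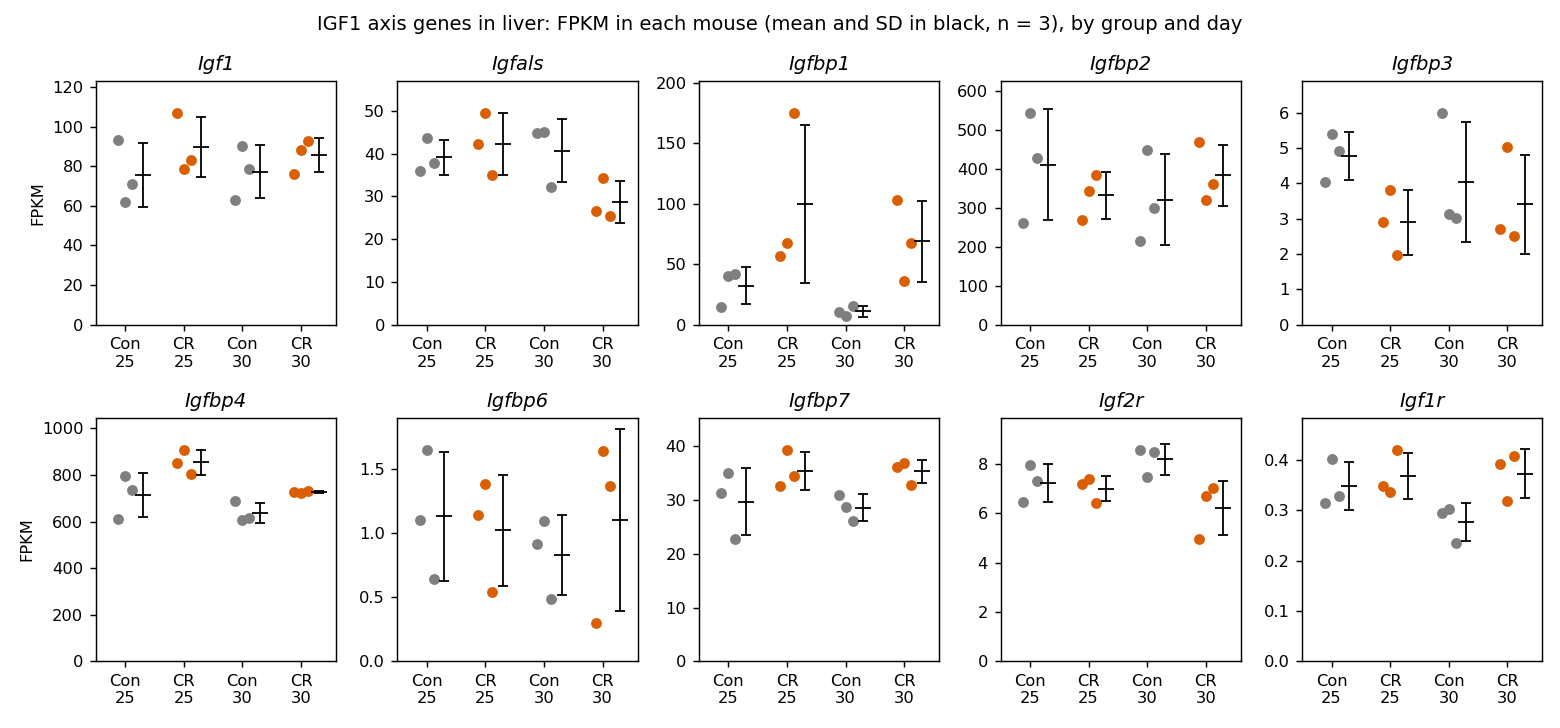
FPKM of the 10 genes in each mouse (points; grey, Con; orange, CR) at day 25 and day 30, with the group mean and SD in black (n = 3); each panel has its own axis from 0. All CR mice lie above all Con mice of the same day for Igfbp1 and Igfbp4, while the groups overlap at both days for Igf1, Igfals, Igfbp2 and Igfbp6.

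The ligand itself was not called. Igf1 (chr10:87861111-87937047, plus strand, mm10) stood at 93.3, 61.8 and 71.2 FPKM in Con7, Con8 and Con9 and at 107, 78.7 and 83.1 FPKM in CR7, CR8 and CR9. At day 30 it stood at 63.2, 90.1 and 78.4 FPKM in Con10, Con11 and Con12 and at 76.3, 88.4 and 92.7 FPKM in CR10, CR11 and CR12. The groups overlapped at both days, and CR means were 1.19 times the Con mean at day 25 and 1.11 times at day 30. The CR effect on the log2(FPKM + 1) scale was 0.25 at day 25 (95% confidence interval -0.13 to 0.63) and 0.16 at day 30 (-0.22 to 0.54). Single mice moved these values: at day 25 to 0.12 without CR7 or Con8 and to 0.41 without Con7, and at day 30 to 0.024 without Con10, 0.10 without CR12, 0.24 without CR10 and 0.28 without Con11. Over both days it was 0.21 (-0.05 to 0.46; adjusted p = 0.204), so the interval reaches further above 0 than below it. The call over both days was made with the replicate number as a block at day 25 (adjusted p = 0.0961) or without Con7 (0.0990), the lowest of a range of 0.0961 to 0.455 over the alternatives. A lower Igf1 mRNA in CR by more than 0.05 on this scale thus lay outside the interval over both days. This bound is that of the main fit only, and over the alternatives the effect ran from 0.14 to 0.28.

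Igfals encodes the liver-made subunit that keeps IGF1 in the large circulating complex. At day 25 it was at 35.9, 43.7 and 37.8 FPKM in Con7 to Con9 and at 42.3, 49.6 and 35.1 FPKM in CR7 to CR9, with the groups overlapping (log2 fold change 0.10, adjusted p = 0.760). In the day 30 groups Igfals was at 44.8, 45.1 and 32.2 FPKM in Con10 to Con12 and at 26.6, 34.4 and 25.4 FPKM in CR10 to CR12. There CR10 and CR12 were below every Con mouse, while CR11 was above Con12. The CR effect at day 30 was -0.48 (95% confidence interval -0.84 to -0.12, n = 3 against 3, limma adjusted p = 0.0675), a ratio of mean FPKM of 0.707. This call was lost when Con10 (adjusted p = 0.183), Con11 (0.194), CR10 (0.195) or CR12 (0.174) was left out, and when all genes above 0 in at least 1 library were tested (0.116); adjusted p over the alternatives ran from 0.0291 to 0.195. Igfals was called at day 30 and not at day 25, and the difference between the days itself was -0.58 (unadjusted p = 0.0285, adjusted p = 1.00), which did not pass.

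Igfbp1, the binding protein of the fasting response, gave the largest difference of the 9 genes tested. It lies at chr11:7197787-7202546 on the plus strand. At day 25 the Con mice had 14.4, 40.0 and 42.1 FPKM (Con7, Con8, Con9) and the CR mice 56.7, 67.6 and 175 FPKM (CR7, CR8, CR9). At day 30 the Con mice had 10.3, 6.88 and 15.7 FPKM (Con10, Con11, Con12) and the CR mice 103, 36.2 and 67.6 FPKM (CR10, CR11, CR12). All 3 CR mice were above all 3 Con mice at each day, and CR9 and Con7 stood apart within their groups at day 25. The group means were 32.2 ± 15.4 FPKM in Con and 99.9 ± 65.6 FPKM in CR at day 25 (SD, n = 3), a ratio of 3.10 (1.93 without CR9), and 10.98 ± 4.47 and 69.0 ± 33.5 FPKM at day 30, a ratio of 6.29.

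By limma, on the log2(FPKM + 1) scale, Igfbp1 rose by 1.56 at day 25 (95% confidence interval 0.46 to 2.65, limma adjusted p = 0.0741) and by 2.49 at day 30 (1.40 to 3.59, adjusted p = 0.00634). Over both days it rose by 2.03 (1.23 to 2.82, adjusted p = 0.00133). The calls at day 30 and over both days were made in each alternative run. The call at day 25 was lost without Con7 (log2 fold change 1.08, adjusted p = 0.240), without CR9 (1.06, adjusted p = 0.247) and when all genes above 0 in at least 1 library were tested (0.156); over its alternatives adjusted p ran from 0.0301 to 0.247.

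The CR effect on Igfbp1 was larger at day 30 in value, by 0.93, but this difference did not pass (95% confidence interval -0.61 to 2.48, adjusted p = 1.00), and it ran from 0.59 without CR10 to 1.43 without CR9. The Con mice differed in value as well: their mean at day 25 was 2.93 times that at day 30, a log2 difference from day 25 to day 30 of -1.40 (unadjusted p = 0.0164, adjusted p = 0.569). In CR mice the same difference was -0.46 (95% confidence interval -1.56 to 0.63). Of the 9 genes, 0 were called for a difference of the CR effect between days, where 0.00944% of all genes were called, and 0 between days in CR mice, where 0.321% were. Between days in Con mice 0 of 9 were called, and 0% of all genes. At an unadjusted p under 0.05 there was 1 gene of the 9 in each of these comparisons, Igfals for the CR effect between days and in CR mice, and Igfbp1 in Con mice, where 3.46%, 8.66% and 7.22% of all genes were. In each, voom on the recovered reads called 0 members.

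**Figure D2:**
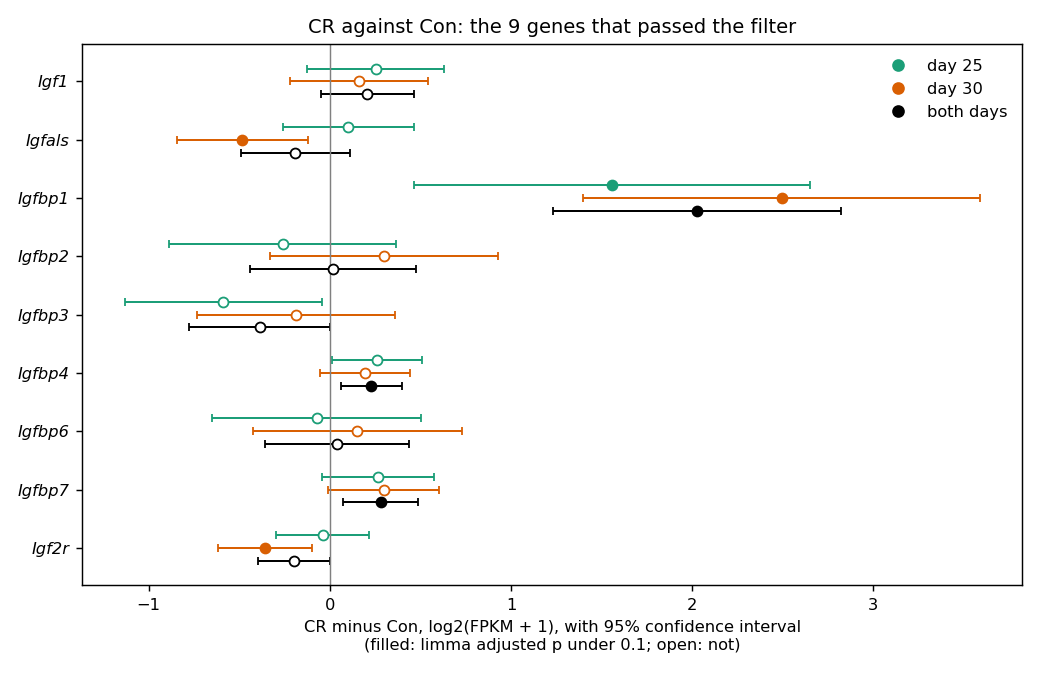
CR effect (CR minus Con) on the log2(FPKM + 1) scale for the 9 genes tested, at day 25 (green), day 30 (orange) and over both days (black), with 95% confidence intervals; filled points passed limma at an adjusted p under 0.1. Igfbp1 lies furthest to the right, at 1.56, 2.49 and 2.03, and Igfals and Igf2r are called lower at day 30; the Igf2r call is lost after median-ratio scaling and quantile normalization.

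Igfbp4 and Igfbp7 were called over both days only, with small differences. Igfbp4, whose product binds IGF1 and is cut by the protease PAPP-A, was at 613, 798 and 737 FPKM in Con7 to Con9 and at 851, 910 and 803 FPKM in CR7 to CR9. At day 30 it was at 688, 606 and 616 FPKM in Con10 to Con12 and at 729, 722 and 731 FPKM in CR10 to CR12. All 3 CR mice were above all 3 Con mice of their day, and Con8 at day 25 was above all 3 CR mice of day 30. The rise over both days was 0.23 (95% confidence interval 0.06 to 0.40, adjusted p = 0.0399), and it was called in each alternative run (adjusted p 0.00735 to 0.0846). The effect was 0.26 at day 25 and 0.19 at day 30, neither called (adjusted p = 0.178 and 0.266), though the day 30 value was called after median-ratio scaling (0.0964; 0.0964 to 0.462 over its alternatives).

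Igfbp7 encodes a secreted protein with low affinity for IGFs that is a known product of endothelial and stromal cells. It was at 31.3, 35.0 and 22.8 FPKM in Con7 to Con9 and 32.6, 39.4 and 34.4 FPKM in CR7 to CR9, with 1 Con mouse (Con8) above CR7 and CR9. At day 30 it was at 31.0, 28.7 and 26.1 FPKM in Con10 to Con12 and 36.2, 36.9 and 32.8 FPKM in CR10 to CR12, with no overlap. Over both days it rose by 0.28 (95% confidence interval 0.07 to 0.49, adjusted p = 0.0404), again in each alternative run (adjusted p 0.00747 to 0.0890). At day 30 alone the effect of 0.30 was not called (adjusted p = 0.173), but it was with the replicate block at day 25 (0.0966), after median-ratio scaling (0.0573) or quantile normalization (0.0982), or without Con9 (0.0904); the range over the alternatives was 0.0573 to 0.380.

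Markers of stellate and sinusoidal endothelial cells are given beside Igfbp7. Of 7 stellate cell markers tested, 5 rose over both days (Ecm1, Reln, Dcn, Des, Colec11) and 0 fell, where 14.5% of all genes were called higher and 26.1% lower. At day 25, 1 of the 7 was called higher (Reln), against 5.6% of all genes, and at day 30, 4 were (Ecm1, Reln, Dcn, Des), against 8.33%. The call of Des at day 30 was lost in 13 of 22 alternatives, and that of Reln in 2 of 23 at each day. The summed level of all 8 listed stellate markers, Col1a1 under the filter included and Dcn the most abundant, was 107.5, 122.8 and 108.9 FPKM in Con7 to Con9, 131.9, 157.1 and 133.1 FPKM in CR7 to CR9, 113.9, 95.7 and 86.5 FPKM in Con10 to Con12 and 140.2, 157.6 and 136.2 FPKM in CR10 to CR12. Of 6 sinusoidal endothelial markers, 4 rose over both days (Fcgr2b, Oit3, Clec4g, Stab2) and 0 fell, and Clec4g was the most abundant. The other endothelial markers were not called over both days, with Kdr at 0.22 and Lyve1 at -0.12. At day 25, 1 of the 6 was called higher (Stab2), a call lost in 5 of 23 alternatives. At day 30 the same 4 as over both days were called higher, and the calls of Clec4g, Stab2 and Fcgr2b were lost in 7, 3 and 2 of 23 alternatives. The sum of the 6 was 44.5, 60.5 and 39.3 FPKM in Con7 to Con9, 53.1, 55.4 and 64.5 FPKM in CR7 to CR9, 43.5, 42.2 and 41.5 FPKM in Con10 to Con12 and 63.1, 55.9 and 60.5 FPKM in CR10 to CR12. No marker of either list was at 0 in all libraries, and the part of these cells in the Igfbp7 result was not tested. Over both days the call of Des was lost in 5 of 21 alternatives and that of Colec11 in 1 of 22, and the other 7 calls in 0. In whole liver, a different number of cells of a type and a different amount of RNA per cell cannot be told apart. Hepatocyte markers were present in every library, with Alb at a mean of 36890 FPKM. Of 6, 2 rose over both days (Alb, Cyp2e1) and Apoa1 fell, with a list median of 0.22 against -0.05 for all genes. At day 25 Cyp2e1 was called higher, against 5.6% of all genes, and at day 30 Alb and Cps1, against 8.33%, with 0 lower. The day 25 call of Cyp2e1 was lost in 6 of 23 alternatives, and the day 30 calls of Cps1 and Alb in 8 and 2. The Alb and Cyp2e1 calls were lost when all genes above 0 in at least 1 library were tested. Alb was the top gene of each library, so quantile normalization gives it 1 value in all of them and tests nothing. The Apoa1 call was lost in 9 of 22 alternatives, median-ratio scaling and quantile normalization among them.

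Igfbp2 was the binding protein with the widest spread between mice at a high level. It was at 262, 545 and 428 FPKM in Con7 to Con9, 268, 343 and 386 FPKM in CR7 to CR9, 216, 449 and 301 FPKM in Con10 to Con12 and 471, 320 and 361 FPKM in CR10 to CR12. The groups overlapped at both days. The CR effect was -0.26 at day 25 (95% confidence interval -0.89 to 0.37), 0.30 at day 30 (-0.33 to 0.93) and 0.02 over both days (-0.44 to 0.48, adjusted p = 0.961). With quantile normalization the value over both days was -0.095. Leaving out 1 mouse moved the value at day 25 between -0.55 (Con7) and -0.028 (Con8), and that at day 30 between 0.044 (Con10) and 0.57 (Con11).

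Igfbp3, the main carrier of IGF1 in the large complex, was at 4.04, 5.39 and 4.92 FPKM in Con7 to Con9 and at 2.91, 3.81 and 1.98 FPKM in CR7 to CR9. In the day 30 groups Igfbp3 was at 5.995, 3.12 and 3.01 FPKM in Con10 to Con12 and at 2.71, 5.03 and 2.50 FPKM in CR10 to CR12. All CR mice were below all Con mice at day 25, and the groups overlapped at day 30. The effect was -0.59 at day 25 (95% confidence interval -1.13 to -0.04, adjusted p = 0.167) and -0.39 over both days (adjusted p = 0.116), neither called. At day 25 it was called with only the libraries of that day in the model (adjusted p = 0.0859; 0.0859 to 0.433 over its alternatives). Over both days it was called with TPM (0.0789), with voom (0.0654) and without Con11 (0.0798), Con12 (0.0723) or CR11 (0.0276), in a range of 0.0276 to 0.242.

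In rodent liver Igfbp3 is made mainly outside hepatocytes. Kupffer cell markers, tested as a list of 6, had 3 called lower at day 25 (Cd5l, Clec4f, Vsig4) and 0 higher, where 9.34% of all genes were called lower. At day 30 Marco was called higher, as were 8.33% of all genes, and 0 lower; without Con12 or CR10 Marco was not called. Over both days 4 of 6 were called, Marco higher and Cd5l, Clec4f and Timd4 lower, where 14.5% of all genes were called higher and 26.1% lower, and the call of Timd4 was lost in 11 of 21 alternatives. At day 25 the calls of Cd5l and Clec4f were each lost in 4 of 23 alternatives and that of Vsig4 in 0. Their summed level, with Cd5l the most abundant, was 34.4, 56.5 and 35.2 FPKM in Con7 to Con9 and 22.1, 29.1 and 24.1 FPKM in CR7 to CR9, so that no CR mouse reached a Con mouse at day 25. At day 30 it was 44.6, 39.8 and 30.1 FPKM in Con10 to Con12 and 33.0, 40.1 and 30.3 FPKM in CR10 to CR12. None of these markers was at 0 in all libraries. The median of this list was -0.56 at day 25 and -0.32 over both days. The stellate and sinusoidal endothelial lists, also of cells other than hepatocytes, went the other way. Their medians were 0.25 and 0.31 at day 25 and 0.30 and 0.38 over both days. For all genes tested the median was -0.04 at day 25 and -0.05 over both days. The part of any of these cell types in the Igfbp3 values was not tested.

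Igfbp6, whose product prefers IGF2, ranged from 0.301 to 1.65 FPKM with overlapping groups at both days. Its CR effect over both days was 0.04 (95% confidence interval -0.36 to 0.44, adjusted p = 0.898), and it had 9 to 41 reads a library. Of the other markers, limma called 0 of 2 tested cholangiocyte genes, 0 of 1 mesothelial and 0 of 1 pancreatic acinar gene in CR against Con, with 0 at an unadjusted p under 0.05, while the 3 adipocyte markers were under the filter. The other 3 cholangiocyte markers, Krt19, Krt7 and Epcam, were under the filter too. Their ratios of mean FPKM, CR to Con, were 0.789, 1.18 and 0.689 at day 25, with overlap, and 1.84, 2.50 and 1.55 at day 30, without overlap, as for 36.4% of all genes tested. Their summed levels were 7.57 to 17.8 FPKM for 5 cholangiocyte markers (most abundant Spp1), 0.508 to 4.42 FPKM for 4 mesothelial markers (Msln), 0.650 to 1.69 FPKM for 5 acinar markers (Cela2a) and 0 to 1.12 FPKM for the adipocyte markers (Adipoq), with Con12 the library at 1.12. Among 3 blood markers, with sums of 160.5 to 855.7 FPKM and Hbb-bs the most abundant, Alas2 was called lower at both days and over both, and the call at day 25 was lost in 6 of 23 alternatives. The globin genes were not called: Hba-a1 was at -0.05 at day 25, 0.75 at day 30 and 0.35 over both days, and Hbb-bs at -0.09, 0.79 and 0.35.

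Among the receptors, Igf2r is the mannose 6-phosphate receptor, which takes up and clears IGF2 and does not signal for IGF1. At day 25 it was at 6.43, 7.96 and 7.30 FPKM in Con7 to Con9 and 7.16, 7.40 and 6.42 FPKM in CR7 to CR9, with overlap. At day 30 it was at 8.57, 7.47 and 8.48 FPKM in Con10 to Con12 and 4.96, 6.69 and 6.995 FPKM in CR10 to CR12, so that all CR mice were below all Con mice. The effect at day 30 was -0.36 (95% confidence interval -0.61 to -0.10, n = 3 against 3, adjusted p = 0.0609). It was lost after median-ratio scaling (0.103) or quantile normalization (0.107), with only the libraries of day 30 (0.102), with all genes above 0 in at least 1 library (0.102), and without Con10 (0.151), Con12 (0.151) or CR10 (0.226); the range was 0.0258 to 0.226. The difference from day 25, -0.32, did not pass (adjusted p = 1.00). Over both days the effect of -0.20 was not called (adjusted p = 0.116), but it was with TPM (0.0882), with voom (0.0609) and without Con7 (0.0579) or CR8 (0.0837), in a range of 0.0579 to 0.259.

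Igf1r was at 0.314 to 0.401 FPKM in Con and 0.335 to 0.420 FPKM in CR mice at day 25, and at 0.234 to 0.302 and 0.318 to 0.408 FPKM at day 30, where the groups did not overlap. Tested with all genes above 0 in at least 1 library, its effect was 0.02 at day 25, 0.10 at day 30 and 0.06 over both days, none called (adjusted p = 0.859, 0.162 and 0.195). The pseudocount of 1 shrinks a fold change at this level, and the ratio of mean FPKM at day 30 was 1.35.

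The 6 binding protein genes among the members were also summed: Igfbp1, Igfbp2, Igfbp3, Igfbp4, Igfbp6 and Igfbp7, without Igfbp5. Igfbp4 and Igfbp2 made up most of their summed FPKM. Igfbp4 was 54.3% to 72.2% of the sum in the 12 libraries and Igfbp2 22.1% to 41.0%. Igfbp1 was 2.59% ± 0.945 of the sum in Con and 7.38% ± 4.45 in CR mice at day 25 (SD, n = 3), and 1.12% ± 0.505 and 5.52% ± 2.23 at day 30. At day 25 the CR mean rests in part on CR9, with 12.5% against 4.67% in CR7 and 4.95% in CR8, and without CR9 it was 4.81%. Within a library Igfbp1 exceeded Igf1 in 2 of 12 mice, CR9 and CR10. The ratio of Igfbp1 to Igf1 FPKM was 0.0763 to 0.201 in Con mice at day 30 and 0.410 to 1.35 in CR mice, without overlap; at day 25 it was 0.155 to 0.647 and 0.530 to 2.11, with overlap. The ratio of Igfals to Igf1 FPKM was 0.410 to 0.710 in Con and 0.274 to 0.389 in CR mice at day 30, and 0.385 to 0.707 and 0.396 to 0.630 at day 25. These ratios were not tested.

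Other genes of the pathway were counted in lists written by role. In the list of further IGF axis genes, 5 of 15 passed the filter, and over both days, when 40.6% of all genes were called, 2 of these 5 were: Tmem219, which encodes a reported receptor for IGFBP3, rose (log2 fold change 0.27, adjusted p = 0.0448) and Lrp1, a large endocytic receptor, fell (-0.23, adjusted p = 0.0605). Tmem219 was at 24.6 ± 2.90 and 28.4 ± 2.19 FPKM in Con and CR mice at day 25 and at 21.8 ± 3.95 and 27.4 ± 3.08 FPKM at day 30 (SD, n = 3). At each day limma called 0 of the 5, with 0 at an unadjusted p under 0.05 at day 25 and 1 at day 30, Tmem219 (0.0322). Their median over both days was -0.06, against -0.05 for all genes. Igf2, named for its role after its values were seen, was at 0.145, 0.118, 0.0717 and 0.134 FPKM on average in Con and CR mice at day 25 and Con and CR mice at day 30, and the insulin receptor gene Insr at 21.0, 19.7, 19.5 and 19.1 FPKM.

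Of 9 tested genes of the growth hormone pathway, which drives hepatic Igf1 and Igfals transcription through JAK2 and STAT5, 4 fell over both days and 0 rose, near the 40.6% of all genes called (26.1% lower, 14.5% higher). They were Ptpn6, a phosphatase that acts on JAK2 (-0.37, adjusted p = 0.00437), Stat5a (-0.28, 0.0432), the inhibitor Socs3 (-0.58, 0.0693) and Jak2 itself (-0.23, 0.0866). At day 25 limma called 0 of 9, with 1 at an unadjusted p under 0.05, Ptpn6 (0.0261). At day 30 Ptpn6 and Stat5a were called lower, and the call of Stat5a was lost in 8 of 23 alternatives. The list's median over both days was -0.23, against -0.05 for all genes. Ptpn6 was at 6.90 ± 0.588 and 5.48 ± 0.670 FPKM in Con and CR mice at day 25 and at 7.20 ± 0.835 and 5.03 ± 0.613 FPKM at day 30 (SD, n = 3). The receptor gene Ghr, named after its values were seen, was not called by limma in any of these comparisons: the effect was -0.052 at day 25 (adjusted p = 0.890), -0.44 at day 30 (unadjusted p = 0.0252, adjusted p = 0.101, just over the threshold) and -0.25 over both days (adjusted p = 0.163). Its means in Con and CR mice were 123 and 121 FPKM at day 25, with overlap, and 137 and 102 FPKM at day 30, with all CR mice below all Con mice, where 36.4% of all genes had no overlap.

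Signalling genes below the insulin and IGF1 receptors were mixed: of 17 tested, 2 rose and 4 fell over both days, no larger a share than the 14.5% and 26.1% of all genes. Foxo1, a transcription factor that insulin and IGF1 signalling keeps out of the nucleus, rose at day 25 (0.76, adjusted p = 0.00639), at day 30 (0.82, 0.00249) and over both days (0.79, 7.15e-05). Its means were 12.5 ± 1.81 and 21.9 ± 3.76 FPKM in Con and CR mice at day 25 and 9.61 ± 0.208 and 17.8 ± 2.29 FPKM at day 30 (SD, n = 3). Foxo3, of the same family, rose over both days (0.45, adjusted p = 0.0576). Grb14, an adaptor that inhibits the insulin receptor, fell at day 25 (-0.34, adjusted p = 0.0642), at day 30 (-0.43, 0.0180) and over both days (-0.38, 0.00160); the call at day 25 was lost in 6 of 23 alternatives, median-ratio scaling among them. The adaptors and exchange factor Shc1 (-0.18, adjusted p = 0.0759) and Sos1 (-0.29, 0.0383) and the kinase subunit Pik3r2 (-0.23, 0.0300) fell over both days. The median of the list was 0.06, against -0.05 for all genes.

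Of 8 genes that insulin represses and FOXO factors activate in liver, 4 rose and 1 fell over both days, where 14.5% of all genes were called higher and 26.1% lower. Ppargc1a, a coactivator of gluconeogenic genes, rose by 0.92 (adjusted p = 0.00166), Pdk4, an inhibitor of pyruvate oxidation, by 0.78 (0.0138), Pck1, which encodes a key gluconeogenic enzyme, by 0.64 (0.00997) and G6pc, which encodes the last one, by 0.61 (0.0472). Sesn3, a FOXO target, fell (-0.43, adjusted p = 0.0111). At day 25 limma called 1 of the 8 higher (Ppargc1a), against 5.6% of all genes, and 1 lower (Sesn3), against 9.34%. These calls were lost in 6 and 5 of 23 alternatives. At day 30, 3 were called higher (Pck1, Pdk4, Ppargc1a), against 8.33%, and 0 lower. Pdk4 lost that call in 1 of 22 alternatives. G6pc was called at neither day. Pck1 was called at day 30, where it rose by 1.02 (adjusted p = 0.00344), and not at day 25 (0.27, adjusted p = 0.406). Its FPKM was 1989 ± 490 in Con and 2340 ± 111 in CR mice at day 25 and 1153 ± 57.3 and 2366 ± 454 at day 30 (SD, n = 3). From day 25 to day 30 its log2 difference was -0.76 in Con mice (limma unadjusted p = 0.00133, adjusted p = 0.415) and -0.002 in CR mice. The difference of its effect between days, 0.75, did not pass (unadjusted p = 0.0128, adjusted p = 1.00). The median of the list was 0.37 over both days, against -0.05 for all genes.

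Several of these calls did not hold in all alternatives. Over both days, Jak2 lost its call in 11 of 22 alternatives, Shc1 in 10, Socs3 in 9 of 21, Foxo3 and Lrp1 in 6 each, Sos1 and Tmem219 in 2 each and Stat5a and G6pc in 1 each. Median-ratio scaling was among these for Jak2, Shc1, Sos1 and Lrp1, and quantile normalization for Jak2, Shc1, Sos1, Socs3 and Stat5a. The calls over both days for Ptpn6, Foxo1, Grb14, Pik3r2, Ppargc1a, Pdk4, Pck1 and Sesn3 were made in each alternative run.

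**Figure D3:**
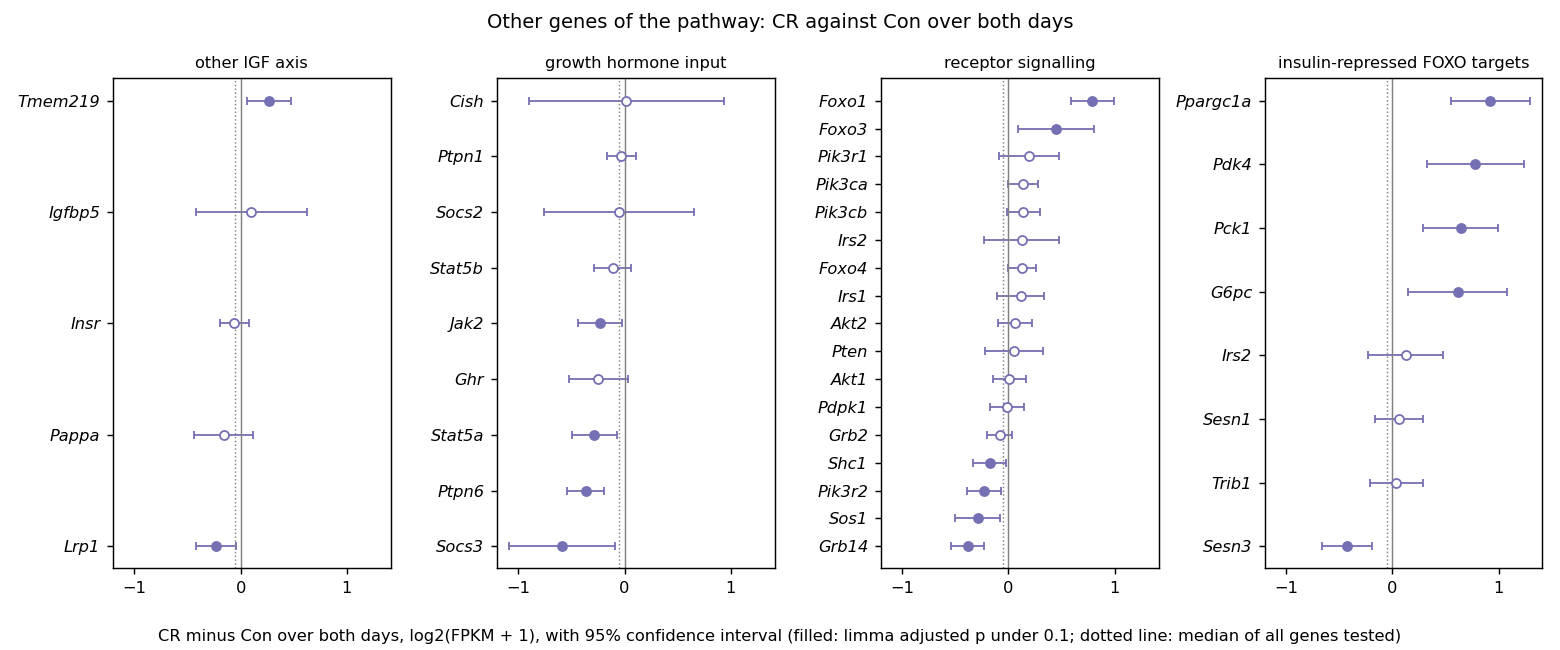
CR effect over both days on the log2(FPKM + 1) scale for the tested genes of the 4 lists of other pathway genes, with 95% confidence intervals; filled points passed limma at an adjusted p under 0.1 and the dotted line is the median of all genes tested (-0.05). Foxo1, Ppargc1a, Pdk4, Pck1 and G6pc lie to the right and Socs3, Grb14, Ptpn6 and Sesn3 to the left; the call of Socs3 is lost after quantile normalization.

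The promoter of Igfbp1 is shown because this gene carried the clearest difference. RefSeq promoter windows (GRCm38.p6, 250 bases before to 50 after each start) were found for all 10 genes, 13 windows in all, and searched on both strands for 4 motifs, whose matches in these windows did not overlap. The insulin response element core CAAAACA was in 1 of 13 windows, that of Igfbp1, at position -108 from the start (chr11:7197679-7197685, plus strand), and in 6.28% of all 32851 windows. The 250 bases before the Igfbp1 start, chr11:7197537-7197786 on the plus strand, have this core in capitals.
Igfbp1: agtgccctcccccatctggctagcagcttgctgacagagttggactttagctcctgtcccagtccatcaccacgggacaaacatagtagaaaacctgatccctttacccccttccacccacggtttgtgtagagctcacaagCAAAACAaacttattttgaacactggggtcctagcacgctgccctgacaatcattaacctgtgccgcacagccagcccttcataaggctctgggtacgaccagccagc

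The STAT5 motif TTCNNNGAA was in 2 of 13 windows, both of Igfals, and in 8.30% of all windows. The matches lie at -236 and -58 from different starts of the gene and are shown with 10 bases on each side, the motif in capitals, because Igfals is a textbook target of growth hormone through STAT5. The first is at chr17:24877598-24877626 and the other at chr17:24878163-24878191, both on the plus strand. Both lie before chr17:24878770, where the transcript kept for Igfals starts, and outside the 250 bases before it.
Igfals, first match: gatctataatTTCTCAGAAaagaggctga
Igfals, other match: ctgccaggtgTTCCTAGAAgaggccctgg
The forkhead core GTAAACA was in 1 of 13 windows, of Igfals, and in 3.65% of all windows, and the cAMP response element TGACGTCA in 0 of 13, against 1.79% of all windows. A match says that these letters are in the window and not that a factor binds there.

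The position of the genes adds to what their reads can show. Igfbp1 and Igfbp3 are neighbours on chromosome 11, end to end with 3545 bases between them, and their CR effects had opposite signs, with only that of Igfbp1 called. Igfbp2 lies 5594 bases from Igfbp5, which was at 1.09 to 4.48 FPKM and not called (over both days 0.10, adjusted p = 0.780). The annotated span of Igf2r shares 28396 bases with that of Airn, a noncoding RNA on the opposite strand. Airn was under the filter, with 0.393 ± 0.153 and 0.108 ± 0.0610 FPKM in Con and CR mice at day 25 and 0.332 ± 0.0883 and 0.104 ± 0.0293 FPKM at day 30 (SD, n = 3). Igfbp7 and Polr2b overlap by 89 bases at their 3′ ends, and Polr2b, which encodes a subunit of RNA polymerase II, also rose over both days (0.27, adjusted p = 0.0215). Whether reads were counted by strand is not stated, so reads from overlapping exons cannot be told apart.

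Genes whose pattern over the 12 libraries was most like that of 3 members were found by Pearson's r of log2(FPKM + 1) among 10064 protein-coding genes, as a description only, since all 12 libraries share the same groups and days. For Igfbp1 the most alike were Slc29a1, a nucleoside transporter (r = 0.974), Got1, the cytosolic aspartate aminotransferase (0.969), Tat, the first enzyme of tyrosine breakdown (0.967), AA986860 (0.961) and Cdip1 (0.952). Mean Tat levels were 638 FPKM in Con and 1594 FPKM in CR mice on day 25, then 406 and 1285 FPKM on day 30. Mean Got1 levels, in the same order, were 174, 410, 98.9 and 319 FPKM. The most opposite to Igfbp1 were Sh3bgrl2 (r = -0.961), the ubiquitin-conjugating enzyme gene Ube2l3 (-0.957) and Ugt2b35 (-0.955). With another pseudocount, TPM, or any mouse left out, the lowest r for these 5 alike genes was 0.944.

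For Igf1 the values were lower: Bdp1 (r = 0.884), Olfr1033 (0.849), Gxylt1 (0.846), D16Ertd472e (0.845) and the phosphodiesterase gene Pde3b (0.836) were most alike, and Zfp672 (-0.947), Arhgef1 (-0.914) and Btbd9 (-0.901) most opposite. For Igfbp2 they were Uxs1 (r = 0.850), Zc3h4 (0.775), D230025D16Rik (0.768), Os9 (0.765) and Apoc4-apoc2 (0.752), and on the opposite side Sycp3 (-0.891) and Robo1 (-0.800). The same alternatives moved Btbd9 to -0.680 for Igf1, and Zc3h4 to 0.580 and Os9 to 0.575 for Igfbp2. The 5 genes most like Igfbp1 all had higher mean FPKM in CR than in Con mice at both days. Of those most like Igfbp2, Uxs1 spanned 1.53 to 2.49 FPKM, Os9 57.4 to 68.2 FPKM and Apoc4-apoc2 183.3 to 353.8 FPKM.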

How the data were processed

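The authors mapped paired-end reads to mm10 with BWA (CASAVA 1.8.2 and FastQC are also named in the submitters' processing notes) and deposited FPKM made with HOMER from reads on exons, 1 transcript per gene. From these values log2(FPKM + 1) was tested with limma 3.58.1 in R 4.3.3 in 1 model of the 4 groups with a trend on expression; CR against Con over both days had day as a covariate. The fit was also run on simulated reads, with the same dispersion for every gene and independent libraries. That run does not cover genes as variable as Igfbp1, or mice that deviate together. All tests are 2-sided; with 3 against 3 mice an exact permutation test cannot go below 0.1. The columns of Con mice at day 30 could be tied to their group but not to single labels. Same-numbered mice deviated together at day 25 (r = 0.368, 0.306 and 0.106), so the number served as a block in an alternative model.

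Members and lists were chosen with earlier results of these data known. All 10 members are named, as are called genes of the related lists (up to 6 per list by p over both days), up to 5 most alike and 3 most opposite genes, and some chromosomal neighbours; markers were listed by cell type, and those named, like Insr, were chosen after their values were seen. Tables used pandas 2.3.3 and numpy 2.4.6 under Python 3.11.15, and figures matplotlib 3.10.9.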

Additional observations from a re-analysis of the deposited data

How the results depend on the processing

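Each comparison was run under other settings and without each mouse. Of 675 alternative log2 fold changes of the tested members, 617 kept direction and side of the threshold, 15 lost the call, 19 gained it and 24 changed sign. Of 1656 values of other named genes, 1466 kept both, 190 lost the call and 0 changed sign. Among the 190, 2 are those of Alb after quantile normalization, which sets it to 1 value in all libraries. The block at day 25 changed the calls of Igf1 over both days and Igfbp7 at day 30. A block at day 30 by column number and the 2-fold rule were added after seeing the data.

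At day 25, where 1 member was called, 0 were with all genes above 0 in at least 1 library (10 members tested) and 0 at an adjusted p under 0.05, while 2 were after median-ratio scaling, 2 after quantile normalization and 2 with only the libraries of the day; without each mouse in turn the number was 0 to 1, with 0 without Con7 or CR9. At day 30, where 3 were called, 1 was with all genes above 0, 1 at an adjusted p under 0.05 and 1 at 2-fold or more; without each mouse it was 1 to 4, with 1 without Con10 or CR10. Over both days, where 3 were called, 5 were with TPM, 5 with voom on the recovered reads and 1 at 2-fold or more; without each mouse it was 3 to 5, with 5 without Con7.

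Signs turned only for differences that were not called. Over both days Igfbp2 was -0.0078 with TPM, -0.095 after quantile normalization and -0.011 with voom, and Igfbp6 was -0.061 with voom. At day 25 Igfbp6 was 0.0051 after quantile normalization, and Igf2r was 0.015 after median-ratio scaling and 0.013 after quantile normalization. Without each mouse in turn, Igfals at day 25 ranged from -0.016 to 0.23, Igfbp2 over both days from -0.13 to 0.15, Igfbp3 at day 30 from -0.43 to 0.074, Igfbp6 at day 25 from -0.25 to 0.11, at day 30 from -0.046 to 0.47 and over both days from -0.061 to 0.17, and Igf2r at day 25 from -0.11 to 0.023. A test of all genes above 0 adjusts over more genes; the cause of the other shifts was not tested. Igfbp6 and Igf1r had at most 41 and 114 reads a library; the part of depth in their errors was not tested.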
